A study of Mus musculus with 12 samples.

Results

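The nuclear-encoded subunits of oxidative phosphorylation were examined in liver mRNA from 6 LNA29-treated and 6 saline-treated mice. All genes whose symbol begins with Ndufa, Ndufb, Ndufc, Ndufs, Ndufv, Uqcr, Atp5, Cox4, Cox5, Cox6, Cox7 or Cox8, together with Sdha, Sdhb, Sdhc and Sdhd, were taken, which gave 90 of the 21705 genes listed. By symbol they comprise 38 subunits of complex I, 4 of complex II, 8 of complex III, 17 of complex IV and 15 of ATP synthase, and 8 further genes that the symbols catch but that encode no classical subunit (Ndufaf1 to Ndufaf4, Atp5s, Atp5sl, Cox4nb and Cox7a2l). Ndufa4 and Ndufa4l2 are counted with complex I by their symbols alone, not by where their proteins act. The subunits that mitochondrial DNA encodes were not analysed here. All 12 animals were female C57BL/6J mice, wild type and 10 to 12 weeks old. The LNA29 group received an intravenous mixture of LNA29a and LNA29bc, locked nucleic acid oligonucleotides directed at the liver's own miR-29 family, each dosed at 20 mg/kg, and the control group received saline alone. Livers were taken on day 7 after an overnight fast. Because the controls received no oligonucleotide, the loss of miR-29 activity and the presence of a locked nucleic acid cannot be told apart in this comparison.

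Oxidative phosphorylation is the last step of fuel oxidation. Complex I passes electrons from NADH, and complex II from succinate, to ubiquinone. Complex III hands them on to cytochrome c, complex IV reduces oxygen, and ATP synthase uses the proton gradient that complexes I, III and IV build. Hepatocytes are rich in mitochondria and rely on this chain to oxidise fatty acids, most of all in the fasted state. Most subunits are small proteins encoded in the nucleus, translated in the cytosol and imported.

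The inhibited miRNAs share the seed that pairs with target mRNAs, shown in capitals (bases 2 to 8) in the mature sequences below from RefSeq. In GRCm38.p6 they lie at chr6:31062673-31062694 on the minus strand (miR-29a-3p), chr1:195037091-195037113 on the plus strand (miR-29b-3p) and chr1:195037600-195037621 on the plus strand (miR-29c-3p).
mmu-miR-29a-3p: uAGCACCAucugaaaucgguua
mmu-miR-29b-3p: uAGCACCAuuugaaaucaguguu
mmu-miR-29c-3p: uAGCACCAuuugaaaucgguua

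A match to this seed (TGGTGCT, sense strand) was present in the longest annotated 3′ UTR of 4 of the 90 genes (4.44%), against 1864 of 12119 tested genes with a 3′ UTR (15.4%). The 3′ UTRs of the oxidative phosphorylation genes were also shorter, with a median of 197 bases against 1129 bases. The 5 matches are shown because they are the places where miR-29 could pair directly with an mRNA of the genes examined. They lie in the 3′ UTR exons of Atp5g1 (chr11:96073045-96073051 and chr11:96072827-96072833), Cox4nb (chr8:120654491-120654497), Ndufb8 (chr19:44549030-44549036) and Sdhc (chr1:171128683-171128689), each on the minus strand of GRCm38, and the match is in capitals.
Atp5g1 first site: catgccagtccTGGTGCTggagtctactg
Atp5g1 second site: ggtaatgatgtTGGTGCTttgtcactttc
Cox4nb site: gggggaggttgTGGTGCTagaggttgaac
Ndufb8 site: gacactgcatgTGGTGCTcagacattcag
Sdhc site: tgctttgtttgTGGTGCTaggggtcaaag

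The sites of Cox4nb and Sdhc are followed by an A, which is known to favour repression. None of the 4 genes passed the limma test for a difference between the groups. Atp5g1, which encodes the c subunit of the ATP synthase ring, had 5477 ± 1710 in saline livers and 5569 ± 2050 with LNA29 (SD, n = 6 each). Its log2 difference was 0.025 (limma adjusted p = 0.989). Ndufb8, an accessory subunit of complex I, had 2868 ± 536 and 2869 ± 622 (SD, n = 6 each), a log2 difference of -0.0054 (limma adjusted p = 0.994). Sdhc, a membrane anchor of complex II, differed by -0.086 (limma adjusted p = 0.922) and Cox4nb, now known as a subunit of the endoplasmic reticulum membrane complex, by 0.036 (limma adjusted p = 0.979).

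Values were deposited on a scale on which the upper quartile of the expressed genes is close to 1000 in each liver, and a gene without reads stands at 1. From the spacing of the low values, 1 read was estimated to be worth between 9.80 and 24.4, and each liver to hold between 7696081 and 19062437 reads on genes. One control library stood apart. In saline replicate 49, albumin took 35.7% of the signal against 43.6% to 46.9% in the other livers, and the summed level of 10 hepatocyte markers was 32863000 against 75211000 to 109594000. Albumin is one of these 10 markers and makes up most of the sum, so the sum largely repeats the albumin share. The other markers were not summed apart from albumin. In this liver the deviation of a gene from the 12-liver mean rose with transcript length (Spearman's rho 0.474 across 12139 genes), whereas in the other 11 livers rho lay between -0.281 and 0.267. Genes of one liver share a library and are not independent, so rho is given as a description. Beside the count and median of each complex, and beside the subunits with the largest differences, values without saline replicate 49 are therefore given where they moved by over 1.5 times or changed sign. In bulk liver, fewer cells of a type and less RNA per cell cannot be told apart.

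No oxidative phosphorylation gene passed the test for a difference between LNA29-treated and saline-treated livers. Of the 85 that reached a mean level of 10, 57 had a higher and 28 a lower mean log2 level in LNA29 livers, and 0 passed limma's adjusted p of 0.05 (smallest adjusted p = 0.718), where 20 of all 12486 tested genes did (0.16%). None had an unadjusted limma p under 0.05 (all genes, 7.91%), and for none did the groups lie apart without overlap (all genes, 0.985%). By the exact permutation test on single genes, 1 of the 85 had an unadjusted p under 0.05 (all genes, 8.5%). It was Ndufb6, an accessory subunit of complex I, named after its values were seen. Ndufb6 ranged from 1726 to 2725 (median 2348) in saline and from 2514 to 2945 (median 2663) in LNA29 livers. The groups overlapped, and the log2 difference was 0.23 with a standard error of 0.13 (exact permutation test, unadjusted p = 0.0325, limma adjusted p = 0.725).

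The intervals give the size of change that the 6 livers per group still allow. For 49 of the 85 genes the 95% interval of the difference lay inside 1.5-fold in either direction, against 21.8% of all tested genes. For 80 of 85 it lay inside 2-fold (all tested genes, 6983 of 12486). The 5 genes with wider intervals were Cox6b2, Cox7a1, Ndufa4l2, Atp5s and Ndufaf1, all with at most 39 reads in any liver. The median log2 difference of the 85 genes was 0.088 and that of all tested genes was -0.093. Scaling moved the split between higher and lower genes, from 57 and 28 to 65 and 20 when livers were shifted to a common median, and to 66 and 19 with TMM scaling. It also widened the intervals. With the common median 29 of 85 lay inside 1.5-fold, and with TMM scaling 36 of 85. The shift was shared by all tested genes. With the common median the median difference was 0.13 for the 85 genes and -0.048 for all tested genes, and with TMM scaling 0.15 and -0.0355. Without saline replicate 49 the median of the 85 genes was -0.029, with 30 higher and 55 lower. Without LNA29 replicate 48 it was -0.0086, with 40 higher and 45 lower. All tested genes had medians of -0.077 and -0.073 in these fits, so a sign is not a position against the typical gene.

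**Figure D1:**
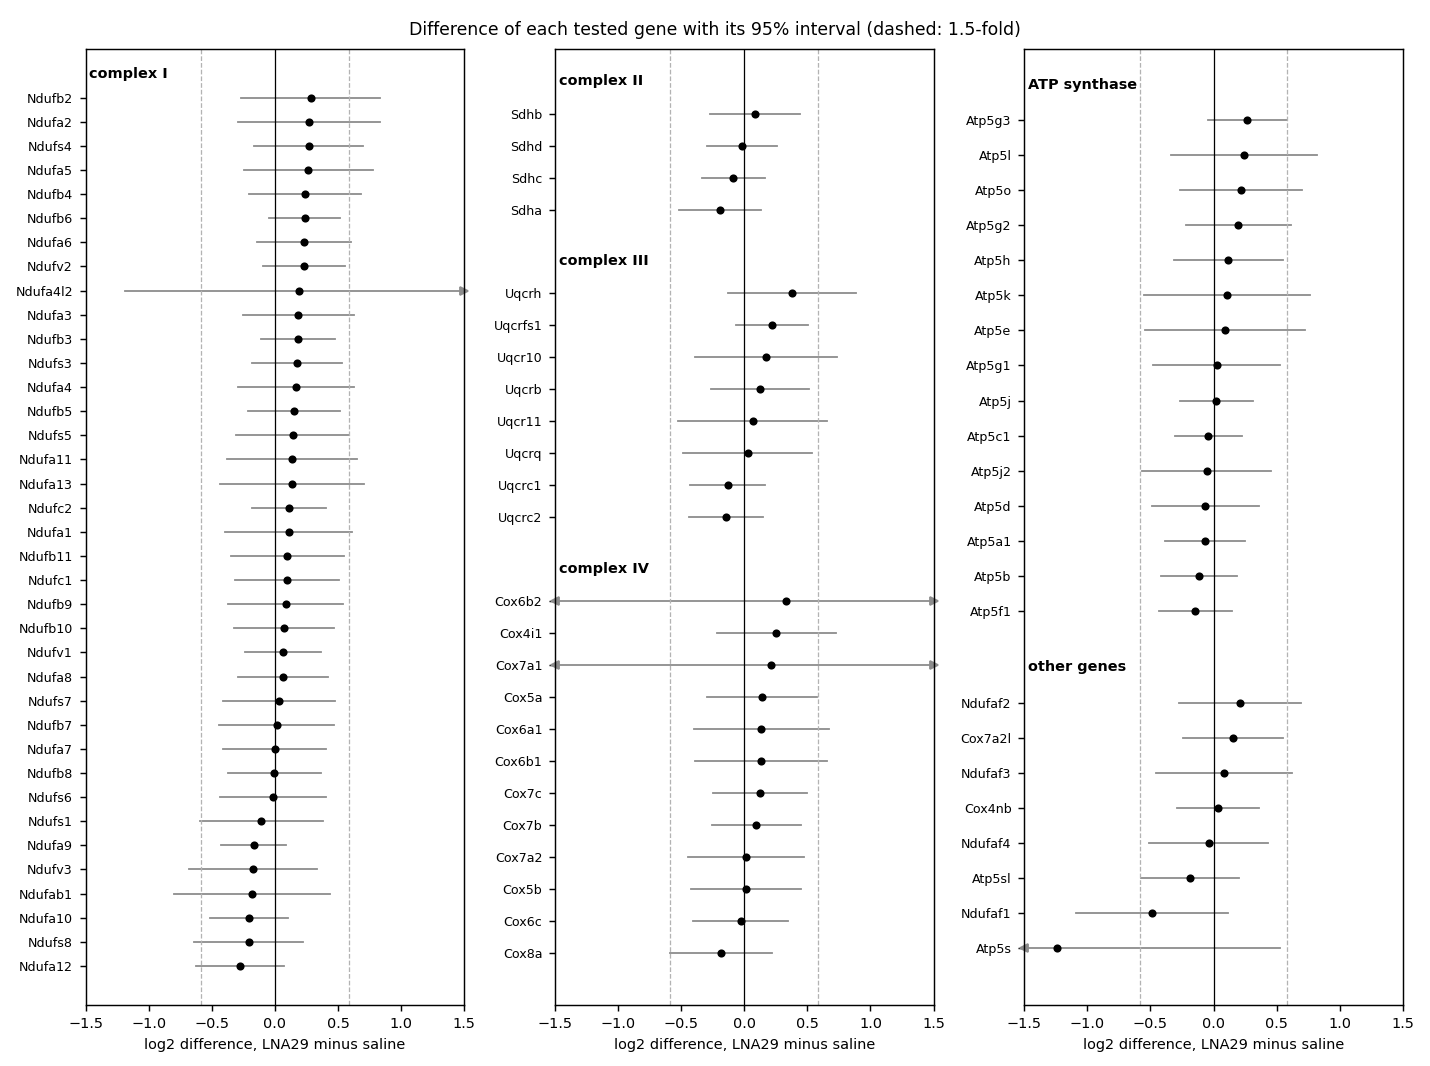
Log2 difference (LNA29 minus saline) of 84 tested genes, by complex, with its 95% interval from limma (n = 6 livers each); dashed lines mark 1.5-fold and arrows mark intervals that run past the axis. Every interval drawn includes 0.

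Complex I, the NADH dehydrogenase, had 27 of 38 subunits with a higher and 11 with a lower mean, 0 of them past the test, and a median log2 difference of 0.10. Without saline replicate 49 the median became -0.018, with 16 of 38 higher, where the median of all tested genes was -0.077. The 7 nuclear core subunits, which carry the flavin and the iron-sulphur clusters, differed by between -0.21 (Ndufs8) and 0.23 (Ndufv2), with 4 higher and 3 lower and a median of 0.029. The 31 accessory subunits, with Ndufa4 and Ndufa4l2 counted among them by symbol, had a median of 0.11, with 23 higher and 8 lower. Ndufs1, the largest core subunit, differed by -0.11 and Ndufv1, which binds NADH, by 0.066.

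Among accessory subunits of complex I the largest differences were those of Ndufb2, Ndufa12 and Ndufa2. Ndufb2 ranged from 580 to 1619 (median 1236) in saline and from 685 to 1887 (median 1543) in LNA29 livers, a log2 difference of 0.28 (standard error 0.26, limma adjusted p = 0.863) that was 0.089 without saline replicate 49. Ndufa2 ranged from 1630 to 5070 (median 3517) and from 2638 to 7453 (median 3565), a difference of 0.27 (standard error 0.27, limma adjusted p = 0.871) that was 0.081 without that liver. In both, the lowest of all saline livers was replicate 49. Ndufa12, an accessory subunit of the matrix arm, went the other way. It ranged from 1380 to 2368 (median 2081) in saline and from 1123 to 1925 (median 1696) in LNA29 livers. Its difference was -0.28 (standard error 0.17, limma adjusted p = 0.747), and the groups overlapped.

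Complex II, succinate dehydrogenase, is shared by the tricarboxylic acid cycle and the respiratory chain. Its 4 subunits had a median log2 difference of -0.052, with 1 higher and 3 lower, and each of the 4 intervals lay inside 1.5-fold. The median was -0.075, with 0 of 4 higher, without saline replicate 49. Sdha, the flavoprotein, ranged from 6053 to 11010 (median 8304) in saline and from 5981 to 8548 (median 7723) in LNA29 livers. The ranges overlapped, with a difference of -0.19 (standard error 0.15, limma adjusted p = 0.827) that was -0.11 without saline replicate 49. Sdhb, the iron-sulphur subunit, ranged from 4250 to 7206 (median 6187) and from 5025 to 8981 (median 6242), a difference of 0.088 that became -0.0066 without it. Of the membrane anchors, Sdhc had means of 9192 ± 1024 and 8642 ± 722 and Sdhd of 5816 ± 666 and 5758 ± 812 (SD, n = 6 each), the latter a difference of -0.019.

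Complex III, the cytochrome bc1 complex, had 6 of 8 subunits higher and 2 lower, a median of 0.095, and 5 intervals inside 1.5-fold. Without saline replicate 49 it had 3 of 8 higher and a median of -0.080, and without LNA29 replicate 48 it had 4 of 8 higher and a median of -0.019. Uqcrh, the hinge protein that helps cytochrome c bind, had the largest difference among the subunits whose mean reached 100. It ranged from 3450 to 9070 (median 7232) in saline and from 5750 to 14717 (median 7780) in LNA29 livers. The medians lay close together, and the lowest and the highest values came from saline replicate 49 and LNA29 replicate 48. The log2 difference was 0.38 (standard error 0.24, limma adjusted p = 0.762) and 0.21 without saline replicate 49. Uqcrfs1, the Rieske iron-sulphur protein, ranged from 3263 to 4302 (median 3561) and from 3132 to 5220 (median 4295), a difference of 0.22 (standard error 0.14, limma adjusted p = 0.756). Uqcr10, a small supernumerary subunit, differed by 0.17 with a standard error of 0.27, and by -0.017 without saline replicate 49. The 2 large core proteins were the lower ones, Uqcrc1 by -0.13 and Uqcrc2 by -0.15.

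Complex IV, cytochrome c oxidase, had 12 tested subunits, of which 10 were higher and 2 lower, with a median of 0.13 and 6 intervals inside 1.5-fold. When saline replicate 49 was left out it had 4 of 12 higher and a median of -0.036, and without LNA29 replicate 48 it had 6 of 12 higher and a median of -0.0032. Cox4i1, the subunit through which ATP regulates the enzyme, ranged from 11090 to 27351 (median 21631) in saline and from 16725 to 35981 (median 22971) in LNA29 livers. Its difference was 0.25 (standard error 0.22, limma adjusted p = 0.85) and fell to 0.090 without saline replicate 49. Cox5a differed by 0.14 with a standard error of 0.21, and by -0.029 without it. Cox8a, a small membrane subunit, ranged from 4930 to 10439 (median 9148) in saline and from 4740 to 9512 (median 7780) in LNA29 livers. The difference of -0.18 had a standard error of 0.19 (limma adjusted p = 0.878) and was -0.34 without saline replicate 49.

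Several complex IV subunits exist as isoforms, one used in liver and others known from muscle, lung or testis, and here the liver form prevailed in every pair. Per kilobase of transcript, Cox4i1 had a mean level of 29470 over the 12 livers, whereas Cox4i2, the lung form that responds to low oxygen, had a single read in 1 of 12 livers. Cox6a1 had 38060 per kilobase. Its heart and muscle counterpart Cox6a2 had reads in 3 saline livers and in none of the LNA29 livers, with at most 7 reads, in saline replicate 51. The same liver had the highest summed level of 10 muscle markers, 1899 against 24.4 to 741 in the other livers, in which Myh4, Acta1, Ttn and Tnnt3 had at most 3 reads in every liver; the part of other tissue in these reads was not tested. Cox6b1 had 29570 per kilobase against 109 for the testis form Cox6b2, and Cox7a2 had 1978 against 92.7 for the muscle form Cox7a1. Cox8a stood at 14840 per kilobase, Cox8b had a single read in each of 2 LNA29 livers, and Cox8c and the testis form Cox7b2 had no read in any liver. Cox6b2 and Cox7a1 had at most 10 and 8 reads in a liver, and their intervals (-1.79 to 2.46 and -1.94 to 2.37) set no useful limit on a change. The log2 difference between the groups was 0.14 for Cox6a1 (95% interval -0.40 to 0.67), 0.14 for Cox6b1 (-0.39 to 0.66) and 0.016 for Cox7a2 (-0.44 to 0.48). When saline replicate 49 was left out these became -0.076, -0.044 and -0.13.

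**Figure D2:**
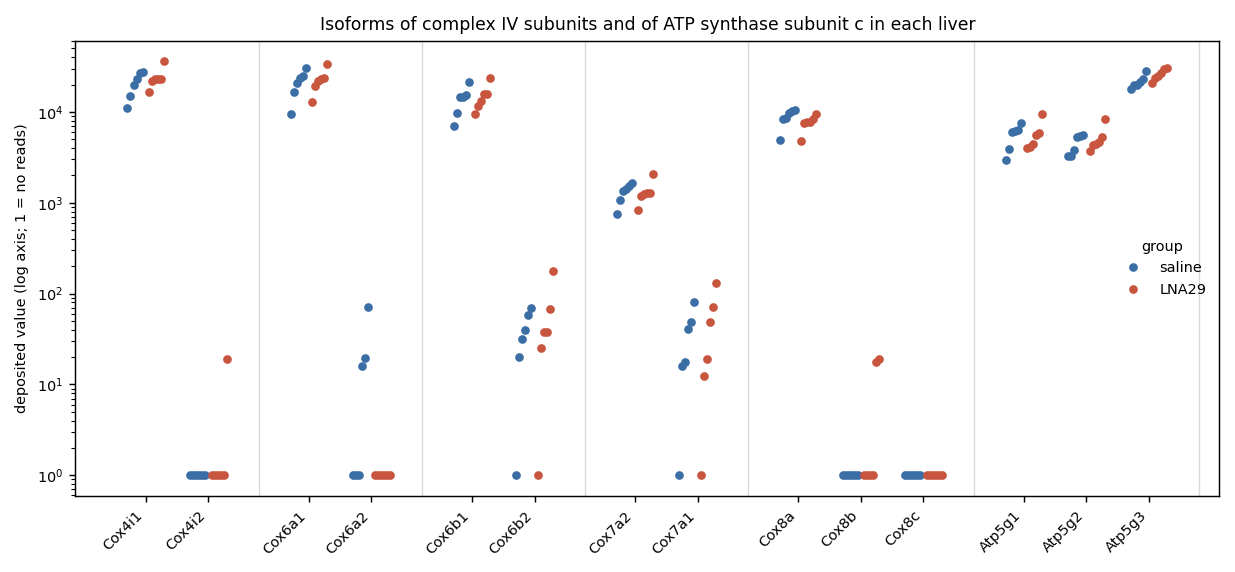
Deposited value of each isoform in each of the 12 livers on a log axis, saline in blue and LNA29 in red, where 1 stands for no reads. The liver isoforms Cox4i1, Cox6a1, Cox6b1, Cox7a2 and Cox8a lie above their counterparts in every liver, while the 3 genes for ATP synthase subunit c are all expressed, Atp5g3 highest.

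ATP synthase had 9 subunits higher and 6 lower, with a median of 0.025 and 10 of 15 intervals inside 1.5-fold. Without saline replicate 49 it had 3 of 15 higher and a median of -0.10, and without LNA29 replicate 48 it had 5 of 15 higher and a median of -0.054. Subunit c, which forms the rotating ring, is encoded by 3 genes that yield the same mature protein. Atp5g3 had the highest level per kilobase, 33160, followed by Atp5g2 with 8142 and Atp5g1 with 2064. Before division by length the latter order was the reverse, with a mean of 4771 for Atp5g2 and 5523 for Atp5g1. The order of these genes thus rests on their median annotated lengths, 586 and 2675.5 bases. Atp5g3 also had the smallest limma p among the 85 genes. Its level ranged from 17810 to 28270 (median 20556) in saline and from 20616 to 30220 (median 25725) in LNA29 livers. The ranges overlapped, with a difference of 0.27 (standard error 0.15, limma adjusted p = 0.718), and the exact permutation test gave an unadjusted p of 0.0671. Atp5g2 differed by 0.20 with a standard error of 0.20, and by 0.12 without saline replicate 49.

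The catalytic head of the ATP synthase was measured through Atp5b and Atp5a1. Atp5b, its β subunit, had 48607 ± 4635 in saline and 44979 ± 5061 in LNA29 livers, and Atp5a1, its α subunit, had 25738 ± 3905 and 24513 ± 3718 (SD, n = 6 each). The log2 differences were -0.11 and -0.070, and both genes were named after their values were seen. Atp5o, which links the head to the stalk and confers oligomycin sensitivity, ranged from 3080 to 8088 (median 5644) and from 4000 to 8736 (median 5954), a difference of 0.22 (standard error 0.23, limma adjusted p = 0.878) that was 0.067 without saline replicate 49. Atp5l, a small membrane subunit, ranged from 860 to 2860 (median 2244) and from 1589 to 4038 (median 2291). Its difference of 0.24 became -0.00014 without saline replicate 49, the liver with the lowest value.

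The 8 genes that are no classical subunits had a median of -0.0018, with 4 higher and 4 lower. Ndufaf1, an assembly factor of complex I, had 324 ± 74.6 in saline and 240 ± 84.1 in LNA29 livers (SD, n = 6 each), a difference on the log2 scale of -0.49 with a standard error of 0.29. Ndufaf2, Ndufaf3 and Ndufaf4, other assembly factors of the same complex, differed by 0.21, 0.083 and -0.039. Cox7a2l, which helps join complexes III and IV, differed by 0.15. Atp5s had at most 13 reads in a liver and none in 1 liver.

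Individual livers spread widely within each group. For each of 81 genes whose mean reached 100, the log2 deviation from the 12-liver mean was taken and averaged over each complex. The complex I average spanned 1.01 across the 12 livers, complex III 1.15, complex IV 1.31 and ATP synthase 1.09. The SD of the livers within a group lay between 0.222 and 0.415 for these 4 complexes, and their group means differed by at most 0.089. A span over single livers and a difference of group means are unlike measures. Saline replicate 49 was lowest and LNA29 replicate 48 highest for each of these 4 complexes, with complex IV at -0.79 and 0.52. Saline replicate 49 had the lowest of the 12 values for 53 of the 81 genes and LNA29 replicate 48 the highest for 43. Complex II was the exception, with a span of 0.32, from -0.14 in LNA29 replicate 44 to 0.19 in saline replicate 51. Its average joins genes that moved in opposite ways. Sdha deviated by 0.49 in saline replicate 49 and -0.39 in LNA29 replicate 48, and Sdhb by -0.52 and 0.56. The median standard deviation within groups was 0.22 for the 4 complex II subunits, against 0.39 for complex I, 0.41 for complex III, 0.40 for complex IV and 0.39 for ATP synthase. It was 0.226 for the 18 of the 81 genes with at least 1500 bases, so a low value was not particular to complex II. These averages are descriptions, since the genes of a complex share each library.

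**Figure D3:**
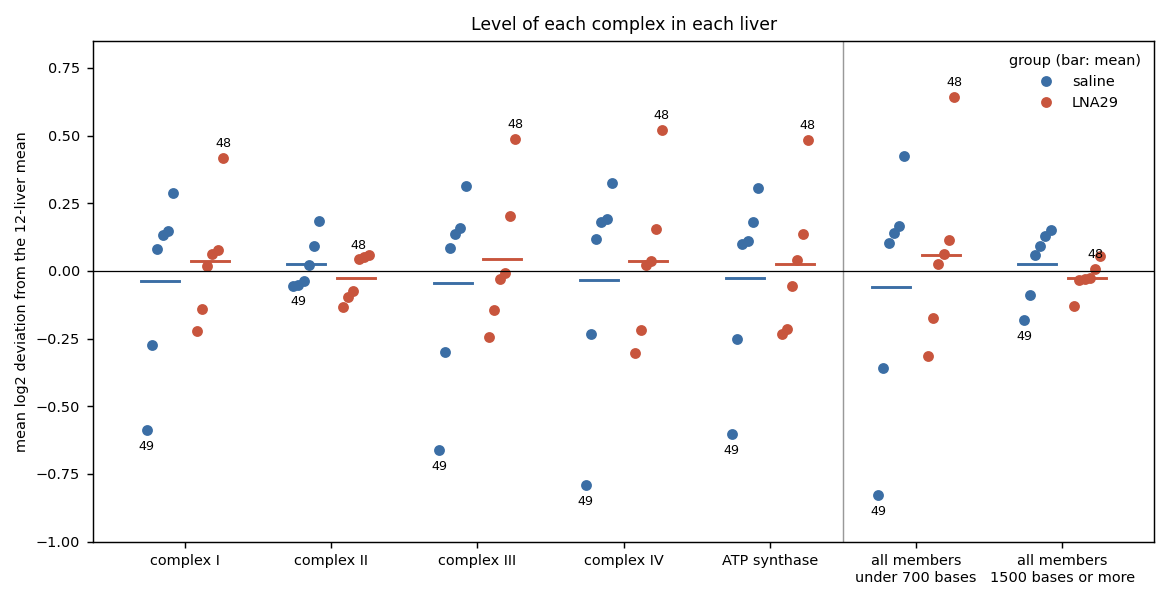
Mean log2 deviation of each liver from the 12-liver mean for the subunits of each complex (left) and for genes of short and long transcripts (right), with a bar at the mean of each group of 6; replicates 48 and 49 are labelled. The groups overlap in every column, and the span of 0.32 in complex II and of 0.331 in long transcripts is narrower than in the other columns.

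The spread between livers went with transcript length, taken as the median over the annotated transcripts of a gene. The 33 genes under 700 bases averaged -0.83 in saline replicate 49 and 0.64 in LNA29 replicate 48, and each of the 33 lay below its mean in the first and above it in the second. The 18 genes of 1500 bases or more averaged -0.18 and 0.0064, with 13 below and 8 above. Atp5k, a small membrane subunit with a transcript of 322 bases, deviated by -1.20 and 1.22 in these livers. Sdha, with 2900 bases, deviated by 0.49 and -0.39, and Ndufs1, with 2626 bases, by 0.81 and -0.69, the opposite way. These 2 and Atp5k were named after their values were seen. Several long genes were exceptions to the trend. Ndufb2 had a median annotated transcript of 2413 bases and deviations of -1.11 and 0.59, and Atp5g1 had 2675.5 bases and -0.84 and 0.84. Ndufab1, with 2447.5 bases, deviated by -0.60 and 0.55, and Ndufs4, with 1698 bases, by -0.69 and 0.74. The 218 other genes under 700 bases averaged -0.67 in saline replicate 49 and 0.54 in LNA29 replicate 48, and 76 cytosolic ribosomal protein genes -1.01 and 0.89, so the pattern was not particular to oxidative phosphorylation.

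**Figure D4:**
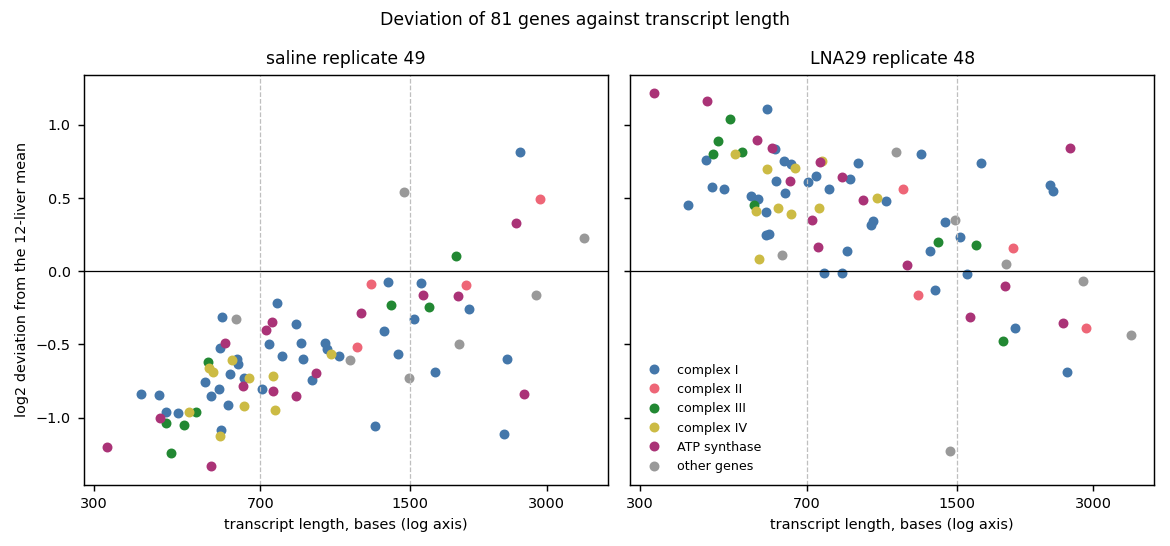
Log2 deviation of 81 genes from the 12-liver mean against transcript length (log axis, bases) in saline replicate 49 (left) and LNA29 replicate 48 (right), coloured by complex; dashed lines mark 700 and 1500 bases. All 33 genes left of the first line lie below 0 in replicate 49 and above 0 in replicate 48.

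The difference between the groups was also ordered by length. Tested oxidative phosphorylation genes under 700 bases had a median log2 difference of 0.14, with 30 higher and 5 lower, those between 700 and 1500 bases 0.087, with 22 and 9, and those of 1500 bases or more -0.11, with 5 and 14. In the same bands all tested genes had medians of 0.066, -0.028 and -0.11. This order rested in part on saline replicate 49. For the 81 genes whose mean reached 100, the difference of group averages was 0.12 for genes under 700 bases and -0.052 for those of 1500 bases or more, and without that liver it was -0.035 and -0.094. For other genes of the same lengths, 0.012 and -0.098 became -0.12 and -0.051, the reverse order. With each liver's length trend as a covariate, the median of the 85 genes was 0.047, with 51 higher and 34 lower, and 76 of 85 intervals lay inside 1.5-fold. In that fit 0 of the 85 passed an adjusted p of 0.05 (smallest limma adjusted p = 0.178), where 126 of all tested genes did (1.01%), and 5 of 85 had an unadjusted p under 0.05 (all genes, 12.2%). Uqcrh was higher by 0.33, Ndufb6 by 0.22 and Cox4i1 by 0.21, and Ndufa12 was lower with -0.30 and Ndufs8 with -0.24. Without saline replicate 49, Cox8a (-0.34) and Ndufa12 (-0.38) were the 2 of 85 genes with an unadjusted limma p under 0.05 (all genes, 7.96%). The part of RNA quality in the length trend was not tested.

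Beyond the subunits, the rest of the pathway was examined through lists of genes with related roles. None of their members passed limma's adjusted p of 0.05. Of 8 nuclear subunits and electron carriers outside the symbols above, 4 were higher and 4 lower, with a median of 0.071. Of 24 further assembly factors, 9 were higher and 15 lower, with a median of -0.067, and 3 were lower at an unadjusted p under 0.05 (all genes in either direction, 7.91%). Bcs1l, the chaperone that inserts the Rieske protein Uqcrfs1 into complex III, ranged from 263 to 422 (median 286) in saline and from 48.8 to 264 (median 174) in LNA29 livers. Its difference was -1.03 (standard error 0.35, limma adjusted p = 0.372), on 2 to 43 reads. Taco1, a translational activator of the complex IV subunit COX1, differed by -0.55 and Ttc19, which acts on complex III, by -0.55 (limma adjusted p = 0.508 and 0.604).

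Enzymes of the tricarboxylic acid cycle, which feed NADH and succinate to complexes I and II, had a median of -0.14, with 5 higher and 9 lower of 14, 3 of them lower at an unadjusted limma p under 0.05 (all genes in either direction, 7.91%). Idh3b, a regulatory subunit of the NAD-dependent isocitrate dehydrogenase, ranged from 4100 to 5304 (median 4543) in saline and from 3151 to 3951 (median 3599) in LNA29 livers. For this 1 of the 14 genes all LNA29 livers lay below all saline livers (all genes in either direction, 0.985%), with a difference of -0.36 and a standard error of 0.12. The exact permutation p was 0.00216, the smallest that 6 livers per group can give, and it follows from the lack of overlap. The limma adjusted p was 0.347. Idh3g, its partner subunit, differed by -0.33 and Suclg2, a subunit of succinyl-CoA ligase, by -0.40 (limma adjusted p = 0.534 and 0.487). Of 6 porins and carriers of adenine nucleotides and phosphate, 3 were higher and 3 lower.

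Of 13 regulators of mitochondrial gene expression, 8 were higher and 5 lower, with a median of 0.020. Ppargc1a, the coactivator induced by fasting, ranged from 140 to 690 (median 278) in saline and from 89.3 to 875 (median 276) in LNA29 livers. Tfam, which packages mitochondrial DNA, differed by -0.018, and Nrf1, a transcription factor for respiratory genes, by 0.14. Of 75 mitochondrial ribosomal proteins, 30 were higher and 45 lower, with a median of -0.039, and 2 had an unadjusted p under 0.05, a share below that of all genes (7.91%), namely Mrpl3 at -0.61 and Mrpl40 at 0.35. Cytosolic ribosomal proteins, short and abundant like most subunits, had 72 higher and 5 lower of 77 and a median of 0.21, with Rps27a at 0.58 (limma adjusted p = 0.567). The group averages of 76 of them differed by 0.21 with all livers and by 0.035 without saline replicate 49.

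The promoters of these oxidative phosphorylation genes were searched for 3 motifs of factors known to bind respiratory genes. Both strands were read from 250 bases before to 50 after the start in RefSeq (GRCm38.p6). A link between the motifs and the levels of single livers was not tested. A promoter was given for 74 of the 90 genes. GCATGCGC, bound by nuclear respiratory factor 1, was present for 11 of 74 (14.9%) and for 824 of all 27025 genes with a promoter (3.05%). AAGATGGC, bound by YY1, was likewise present for 11 (14.9%) against 3.19%, and 7 of these were among the 33 complex I subunits with a promoter. CCGGAAGT, of the ETS family and GABP, was present for 5 (6.76%) against 4.31%. The genes compared with were not limited to those tested in these livers, so the shares also set expressed genes against unexpressed ones. A match is a description of these letters and no evidence of binding, and the first motif overlaps its own reverse complement, so that GCGCATGCGC counts on both strands. Examples from complexes I, II, IV and ATP synthase are shown with the motif in capitals, at chr15:82354356-82354385 on the minus strand (Ndufa6), chr4:140961206-140961235 on the plus strand (Sdhb), chr5:115349100-115349129 on the minus strand (Cox6a1) and chr15:102671069-102671098 on the minus strand (Atp5g2).
Ndufa6 promoter: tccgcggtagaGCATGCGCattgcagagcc
Sdhb promoter: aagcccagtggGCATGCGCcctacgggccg
Cox6a1 promoter: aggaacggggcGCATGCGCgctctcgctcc
Atp5g2 promoter: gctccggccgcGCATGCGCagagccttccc

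Marker lists for other cell types were read beside these values. Apart from the hepatocyte sum of saline replicate 49, the saline and LNA29 ranges of the summed markers overlapped for stellate, Kupffer, endothelial, bile duct, blood and fat cells. The brown fat genes Ucp1 and Cidea, whose cells are also rich in respiratory chain, had at most 3 reads in every liver. Of 10 Kupffer cell markers 2 had a higher and 8 a lower mean, with a median log2 difference of -0.16, Marco, a scavenger receptor, being among the higher with 1.08 (limma adjusted p = 0.391). Of 9 endothelial markers 2 were higher and 7 lower, with a median of -0.22 and Stab1, another scavenger receptor, at -0.34 (limma adjusted p = 0.567). Summed blood markers were highest in LNA29 replicate 48, at 171878 against 36929 to 154601 in the other livers, and their part in the levels of that liver was not tested.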

How the data were processed

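Polyadenylated RNA of 12 livers was sequenced on a HiSeq 2000. The authors aligned reads with MapSplice2, quantified genes with RSEM (versions not given in the sources used here; the submitters' processing notes name mm9) and deposited a signal value per gene and liver, scaled so that the upper quartile is close to 1000, with genes without reads at 1. The deposited group means, fold changes and p-values of the authors were not used. Between 92.2% and 93.9% of values were whole multiples of 1 estimated read (within 0.02); reads per gene are estimates, and intervals cover the spread between livers. Each liver was labelled as a separate mouse.

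After log2(value + 1) transformation, groups were compared with limma 3.58.1 (R 4.3.3, trend, two-sided, Benjamini-Hochberg over 12486 genes with a mean of at least 10), after a test on simulated data in which 189 of 200 changed genes among 12561 were called, with 3 false calls in 192. Exact permutation tests and figures used Python 3.11.15, scipy 1.17.1 and matplotlib 3.10.9. Transcript lengths and 3′ UTRs came from GENCODE M21 (GRCm38), not the authors' build. Genes were named by rule: the 3 largest differences per complex with a mean of at least 100, all of complex II, core complex I subunits, isoform families, and, in other lists, up to 4 genes with an unadjusted p under 0.05. Members, lists and tests were chosen with earlier results of these data known. Alternatives were a pseudocount of 10, no filter, a mean of at least 100, other scalings, the length trend as a covariate, the thresholds of the study, and leaving out each liver. The values of 1 tested gene are not reported here.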

Additional observations from a re-analysis of the deposited data

Results flagged for a closer look

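Among 74 groups of 6 livers (29 named genes and 8 averages over members, in saline and in LNA29 livers), 5 held a liver far from the rest of its group by Dixon's criterion, which chance flags in about 1 in 20 groups, or 3.7 of 74. On the log2(value + 1) scale, Cox8a was at 12.27 in saline replicate 49 against 13.05 to 13.35 in the other saline livers, and at 12.21 in LNA29 replicate 54 against 12.87 to 13.22 in the other LNA29 livers. Ndufb2 was at 9.42 in LNA29 replicate 54 against 10.44 to 10.88. Uqcrh was at 13.85 in LNA29 replicate 48 against 12.49 to 12.95. Cox6b2, with few reads, was at 1.0, the level of no read, in saline replicate 43 against 4.41 to 6.15. The cause of these single values was not tested.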

How the results depend on the processing

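No member passed limma's adjusted p of 0.05 under the alternatives run, which were a pseudocount of 10, no filter, a mean of at least 100, a shift to a common median, TMM scaling, the length trend as a covariate, and each of 12 livers left out. Under the same alternatives except the length covariate, for which it was not computed, no member's groups lay apart. The median of complex II changed sign with TMM scaling, to 0.0066 with 2 of 4 higher. It was -0.0068, also with 2 of 4 higher, when livers were shifted to a common median. The study's thresholds with an exact permutation test also selected 0. Count models on recovered reads (edgeR and DESeq2) were not run, because the values of only 6 of 12 livers met the criterion for whole reads. With saline replicate 49 or LNA29 replicate 48 left out the median of all members changed sign; leaving out single livers gave -0.029 to 0.17 for all members, -0.018 to 0.19 for complex I, -0.093 to -0.0027 for complex II, -0.080 to 0.19 for complex III, -0.036 to 0.16 for complex IV and -0.10 to 0.13 for ATP synthase. Small differences of single genes also changed sign, none of them past the test: Sdhd became 0.027 once livers were shifted to a common median and 0.040 with TMM scaling, and with the length covariate Atp5g1, Cox7a2 and Ndufs7 became -0.018, -0.021 and -0.0087. Leaving out single livers gave -0.14 to 0.13 for Atp5g1, -0.00014 to 0.36 for Atp5l, -0.029 to 0.26 for Cox5a, -0.076 to 0.28 for Cox6a1, -0.044 to 0.28 for Cox6b1, -0.39 to 1.13 for Cox6b2, -0.47 to 0.95 for Cox7a1, -0.13 to 0.14 for Cox7a2, -0.22 to 0.043 for Ndufs1, -0.094 to 0.13 for Ndufs7, -0.015 to 0.15 for Sdhb, -0.071 to 0.032 for Sdhd and -0.017 to 0.33 for Uqcr10. The cause of these changes was not tested. Depth limits Cox6b2, Cox7a1, Ndufa4l2 and Atp5s, with at most 14 reads in a liver, for which a 2-fold change was not detectable. No paired analysis was possible because the groups share no replicate numbers.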
